A study of Drosophila melanogaster with 4 samples.

Results

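Narrow regions of histone H3 trimethylated at lysine 4 (H3K4me3) were studied in larvae of Drosophila melanogaster. They were chosen by width alone, as every region under 2000 bp in the authors' combined list of enriched regions, on any sequence of the genome. There were 625 such regions among 4451, or 14.0% of the list and 6.17% of the bases it covers. They were compared with the 3084 regions of 2000 to 5000 bp, called mid-width below, and set against the 742 regions over 5000 bp, called broad domains. All larvae were in the third larval instar, of the Oregon-R strain and wild type, and no group was treated or carried a mutation. In the chromatin immunoprecipitation with sequencing (ChIP-seq), lot 2 of a polyclonal rabbit antibody to the modified human H3 peptide was used. The labels give 2 ChIP libraries and 2 input libraries, numbered replicate 1 and 2. Region lists of both ChIP libraries and the combined list were analysed. The inputs were not analysed here. The labels do not state whether the replicates were separate cultures, so the spread between them may be technical.

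H3K4me3 is placed by methyltransferases of the COMPASS family, which in flies include Set1, Trithorax and Trithorax-related. The mark is known from nucleosomes just after the start sites of active genes, where proteins that bind it help to recruit the transcription machinery. Its domains differ in width, and in many animals wide domains have been linked to highly transcribed genes and to genes that define a cell type. A larva holds many tissues, so a weak region can come from a mark on few cells or from little of the mark in many, and these cannot be told apart in such material. The regions are on release 5 of the genome, and a genome sequence or annotation of that release was not used here. They are therefore named by position, with no gene and no sequence. Sequencing depth behind a region is unknown.

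The narrow regions were weak, and their scores followed width in an uneven way. The authors gave each region a score with no stated scale, which ranks regions within a list. In the combined list the narrow regions ran from 1001 to 1999 bp, with a median of 1643 bp and middle 50% between 1375 and 1851 bp. Their median score was 0.20, with quartiles of 0.12 and 0.28, and that of mid-width regions was 2.04, with quartiles of 1.22 and 2.46. Width and score come from the same calls, so these values are a description. Of the 625 narrow regions, 12 (1.92%) scored above 1, against 2482 of the 3084 mid-width regions and 3236 of all 4451 regions. The 20 regions of the combined list with a score below 0 were all narrow.

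Among the narrow regions, both the narrowest and the widest outscored those between them. The 124 regions of 1000 to 1299 bp had a median score of 0.25, the 91 of 1300 to 1499 bp 0.18, the 144 of 1500 to 1699 bp 0.13 and the 266 of 1700 to 1999 bp 0.21. Scores then climbed with width, to 0.45 in the 220 regions of 2000 to 2199 bp and 1.14 in the 578 of 2200 to 2499 bp. Width and score had a Spearman's rho of -0.49 across the 359 regions under 1700 bp, 0.58 across the 266 regions of 1700 to 1999 bp and 0.68 across the mid-width regions. Pearson's r was -0.31, 0.27 and 0.61. These values describe regions of 1 list, which share its libraries and depth. In the replicate lists the lowest median also lay at 1500 to 1699 bp, at 0.28 in replicate 1 and 0.24 in replicate 2. It was 0.36 and 0.27 at 1300 to 1499 bp and 0.37 and 0.31 at 1700 to 1999 bp.

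**Figure D1:**
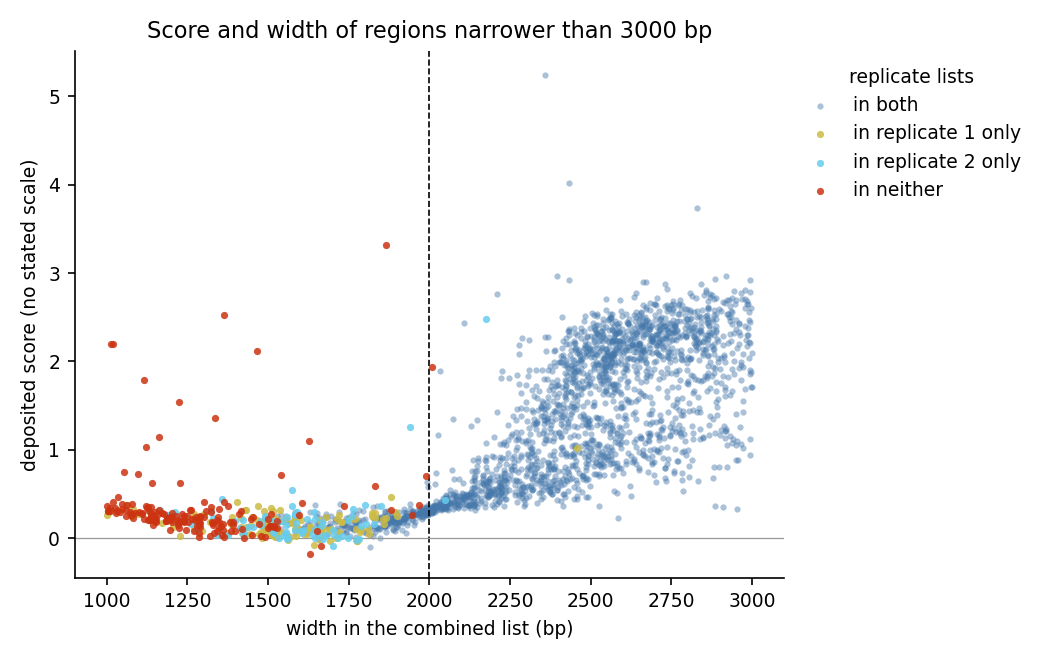
Deposited score (vertical, no stated scale) against width in bp (horizontal) for each region of the combined list narrower than 3000 bp, with colours for the replicate lists that hold it and a dashed line at 2000 bp. Most narrow regions sit close to a score of 0.20, scores rise past 2000 bp, and the 12 narrow regions above 1 are nearly all in neither replicate list.

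Regions right at the limit scored alike on both sides, but scores differed across the 100 bp on each side. The widest members were 1999 bp, on 2L from 490234 to 492232, on 2R from 9783568 to 9785566 and on X from 17575540 to 17577538, with scores of 0.29, 0.29 and 0.34. The narrowest regions outside were of 2001 bp on 2R from 8591956 to 8593956, of 2001 bp on 3L from 3060316 to 3062316 and of 2003 bp on 3R from 4805776 to 4807778, with scores of 0.29, 0.31 and 0.30. All 6 overlapped a region in each replicate list. Within 100 bp of the limit, the 96 regions inside had a median score of 0.28, with quartiles of 0.24 and 0.31. Of these, 92 were in both replicate lists (95.8%). The 106 outside had a median score of 0.38, with quartiles of 0.34 and 0.44, and 104 were in both (98.1%).

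Recovery in the single libraries was lower for the narrow regions as a class than for wider ones. A region of the combined list was counted as found when it overlapped a region of a replicate list by at least 1 bp. Over the whole combined list 91.8% of regions were found in both replicate lists. Of the 625 narrow regions, 266 were found in both (42.6%, exact 95% binomial interval 38.6% to 46.5%). Another 120 (19.2%) were found in replicate 1 only, 74 (11.8%) in replicate 2 only and 165 (26.4%) in neither. Of the mid-width regions, 3080 of 3084 were found in both (99.9%, interval 99.7% to 100.0%). All intervals here treat regions as independent and cover counting error only. An overlap is also easier to reach for a wide region than for a narrow one, and the combined list is labelled as that of the replicate set, so recovery is not independent of width or of the libraries.

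Recovery rose steeply with width inside the class. None of the 124 regions of 1000 to 1299 bp was in both lists and 101 of them (81.5%) were in neither. At 1300 to 1499 bp, 2 of 91 were in both and 42 (46.2%) in neither. At 1500 to 1699 bp the share in both was 32.6%, and at 1700 to 1999 bp it was 81.6%, with 7 of 266 in neither. The narrowest region of either replicate list was 1304 bp wide, and the 127 combined regions below that width made up 20.3% of the class. Without them 266 of 498 narrow regions were in both lists (53.4%) and 62 in neither.

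**Figure D2:**
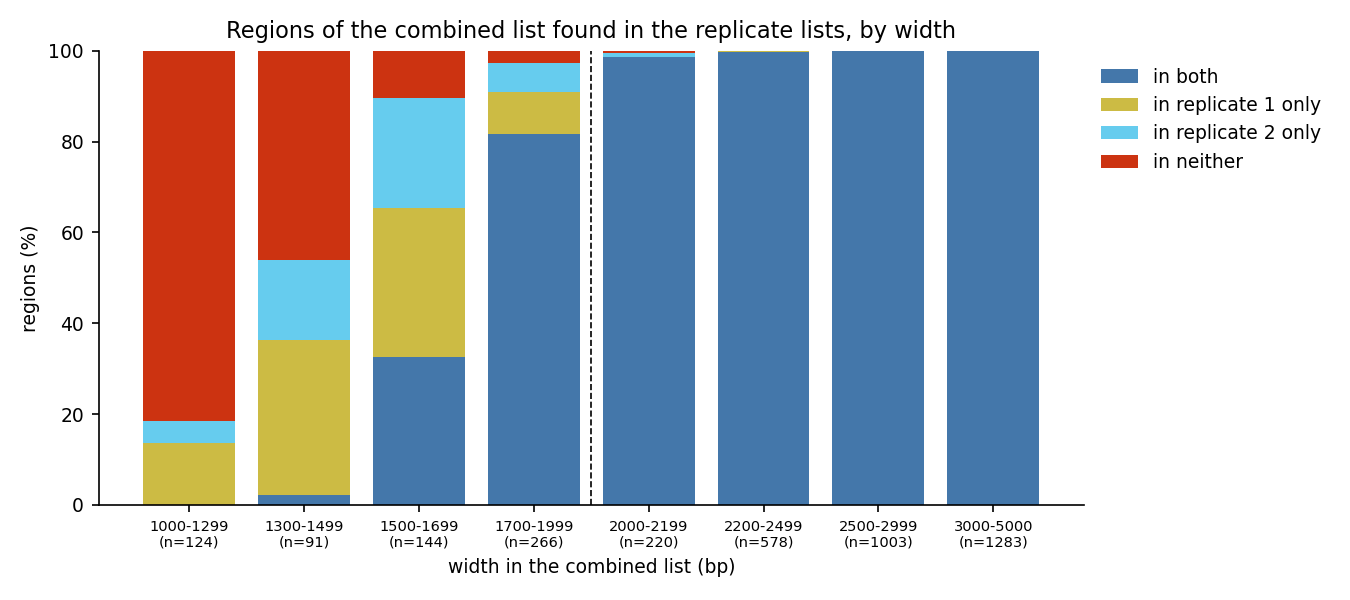
Share of the regions of the combined list (vertical, %) found in both replicate lists, in 1 of them or in neither, by width in bp (horizontal, with the number of regions), with a dashed line at 2000 bp. The share found in both is 0 for 1000 to 1299 bp, 81.6% for 1700 to 1999 bp and 98.6% for 2000 to 2199 bp.

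The 5 narrowest members show this end of the class. Those on 3R from 22919008 to 22920008, of 1001 bp, on 2R from 12127184 to 12128188, of 1005 bp, and on 3R from 9158788 to 9159792, of 1005 bp, were in neither list, with scores of 0.36, 0.30 and 0.31. The region on 2R from 2055636 to 2056636, of 1001 bp and with a score of 0.26, overlapped a region of 1434 bp in replicate 1. The region on 3L from 20132958 to 20133966, of 1009 bp and with a score of 0.30, overlapped one of 1395 bp in replicate 1. Neither of these last was found in replicate 2.

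The 165 narrow regions in neither list were narrower than the rest but did not score lower. Their median width was 1239 bp and their median score 0.24. For the 266 in both lists these medians were 1862 bp and 0.21, and for the 194 found in exactly 1 list 1557 bp and 0.15. Most of the 165 did not lie beside a region of a single library: the median distance to the closest region was 7581 bp in replicate 1 and 7569 bp in replicate 2, and 17 lay within 500 bp in each.

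The combined list was laid out differently from the replicate lists. All 4451 of its regions began and ended on even-numbered bases, a grid of 2 bp, against 50.6% of starts in replicate 1 and 48.4% in replicate 2. No source used here says how it was made. Whether this difference has a part in the unmatched narrow regions was not tested.

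The same width limit applied to the single libraries gave fewer narrow regions, 464 of 4332 in replicate 1 and 456 of 4245 in replicate 2. This was 10.7% ± 0.0220 of a list (SD, n = 2), below the 14.0% of the combined list. That 14.0% includes the 127 regions under 1304 bp, a width that no replicate region falls below. Without them 498 narrow regions remain in the combined list. Of the narrow regions of replicate 1, 342 (73.7%, interval 69.5% to 77.7%) were found again in replicate 2. Of those of replicate 2, 380 of 456 were found again in replicate 1 (83.3%, interval 79.6% to 86.6%). Mid-width regions of a library were found in the other at 99.9% ± 0.00138 (SD, n = 2). In the combined list 378 narrow regions of replicate 1 were narrow again, 75 lay in a mid-width region, 8 in a broad domain and 3 in no region. For replicate 2 the numbers were 338, 112, 6 and 0.

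The 266 narrow regions found in both libraries were narrow in each of them in 258 cases (97.0%), and the widest region behind one was 2049 bp in replicate 1 and 2022 bp in replicate 2. They were wider in the combined list than in a single library, with medians of 1862 bp there, 1742.5 bp in replicate 1 and 1693 bp in replicate 2. Boundaries in the libraries differed by a median of 80.5 bp, as the mean of both ends, or 4.57% of the combined width. For the 3074 mid-width regions with a single partner in each list these values were 37 bp and 1.25%. Scores of the 266 had medians of 0.32 in replicate 1 and 0.26 in replicate 2, and 203 (76.3%) were higher in replicate 1. For mid-width regions the medians were 2.16 and 2.00, and 89.7% were higher in replicate 1. Across the 266 regions, Pearson's r between the libraries was 0.59 for score and 0.40 for width, and Spearman's rho 0.53 and 0.42. Across mid-width regions Pearson's r was 0.99 and 0.96, and Spearman's rho 0.98 and 0.97. The narrow class spans a small part of the range of widths and scores, and a small range by itself lowers such values.

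Library regions behind members found in 1 library only had scores close to those behind members found in both. Regions of replicate 1 behind members found only there had a median score of 0.31, with quartiles of 0.22 and 0.40, against 0.32, with quartiles of 0.24 and 0.40, behind members found in both. In replicate 2 the medians were 0.25 and 0.26. Regions behind members found in 1 library only were narrower in the median. Their median widths were 1564.5 against 1742.5 bp in replicate 1 and 1472 against 1693 bp in replicate 2. Not all of them were under the limit, as the widest was 2020 bp in replicate 1 and 4636 bp in replicate 2.

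Narrow regions lay farther from wider ones than mid-width regions did. Distance was taken as the number of bases between a region and the nearest other region of 2000 bp or more on the same sequence. For narrow regions the median was 8351 bp (exact 95% interval of the median 6971 to 9805 bp), with quartiles of 2565 and 21299 bp. For mid-width regions it was 4235 bp (4005 to 4455 bp), with quartiles of 1475 and 11755.5 bp. In the replicate lists, classed by their own widths, the medians were 7777 and 7749.5 bp for narrow regions, and 3941 and 4164 bp for mid-width regions. The excess of 3711 ± 177 bp (SD, n = 2) was larger than the spread between the libraries. A distance over 50 kb was seen for 232 regions of the whole combined list (5.21%). It was seen for 51 narrow regions (8.16%, interval 6.14% to 10.6%) and 167 mid-width regions (5.42%, interval 4.64% to 6.27%). In the replicate lists the shares were 6.90% and 7.24% for narrow regions, and 5.32% and 5.65% for mid-width regions. That difference of 1.58 ± 0.00895 percentage points (SD, n = 2) was smaller than in the combined list. The intervals of the classes overlap in each list. With 2 libraries, an exact permutation test that exchanges the classes within each library cannot go below a two-sided p of 0.5. No test of the differences in place is therefore given, and they are set against the spread between libraries. Most regions are shared by both lists, so this spread shows how alike the lists are, and does not measure the error of a difference.

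**Figure D3:**
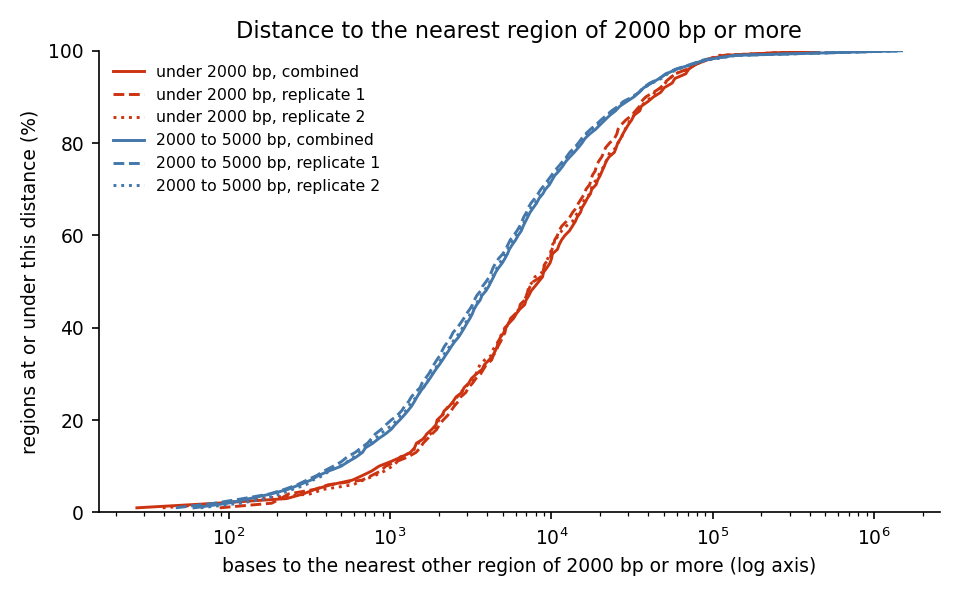
Share of regions (vertical, %) whose nearest other region of 2000 bp or more lies at or under a given number of bases (horizontal, log axis), for narrow and mid-width regions in each of the 3 lists. The 3 narrow curves lie to the right of the 3 mid-width curves over most of the range, with medians of 7749.5 to 8351 bp against 3941 to 4235 bp.

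Many narrow regions stood alone. A region was counted as alone when no other region of any width lay within 10 kb, which held for 24.5% of the whole combined list. It held for 252 of the 625 narrow regions (40.3%, interval 36.4% to 44.3%) and for 742 mid-width regions (24.1%, interval 22.6% to 25.6%). In the replicates the shares were 39.5% ± 0.283 and 24.5% ± 0.603 (SD, n = 2). The difference was 15.0 ± 0.887 percentage points (SD, n = 2), larger than the spread between the libraries. Narrow regions found in both libraries were alone in 96 of 266 cases (36.1%, interval 30.3% to 42.2%). Those found in neither were alone in 72 of 165 cases (43.6%, interval 35.9% to 51.6%).

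Few narrow regions flanked a broad domain. Flanking meant that a region over 5000 bp lay within 5 kb, which held for 15.1% of the whole combined list. It held for 52 narrow regions (8.32%, interval 6.28% to 10.8%) and for 419 mid-width regions (13.6%, interval 12.4% to 14.8%). In the replicates the shares were 7.39% ± 0.217 and 13.0% ± 0.105, a difference of -5.56 ± 0.321 percentage points (SD, n = 2), again larger than the spread. The 18 narrow regions on U, the scaffold of unplaced sequence, and on 2RHet, a scaffold of heterochromatin, had no broad domain on their sequence and count as not flanking. The other 321 narrow regions were neither alone nor flanking.

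Neither measure of place had a step at the limit. The share of regions alone was 46.0% at 1000 to 1299 bp, 47.3% at 1300 to 1499 bp, 39.6% at 1500 to 1699 bp and 35.7% at 1700 to 1999 bp. It was 30.0% at 2000 to 2199 bp, 32.2% at 2200 to 2499 bp, 25.4% at 2500 to 2999 bp and 18.3% at 3000 to 5000 bp. The flanking share was between 7.64% and 9.02% in the narrow classes, 10.0% at 2000 to 2199 bp and 16.3% at 3000 to 5000 bp. Directly at the limit the order of the alone share was turned, with 30 of the 96 regions in the last 100 bp below it alone (31.3%) and 41 of the 106 in the first 100 bp from it (38.7%).

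**Figure D4:**
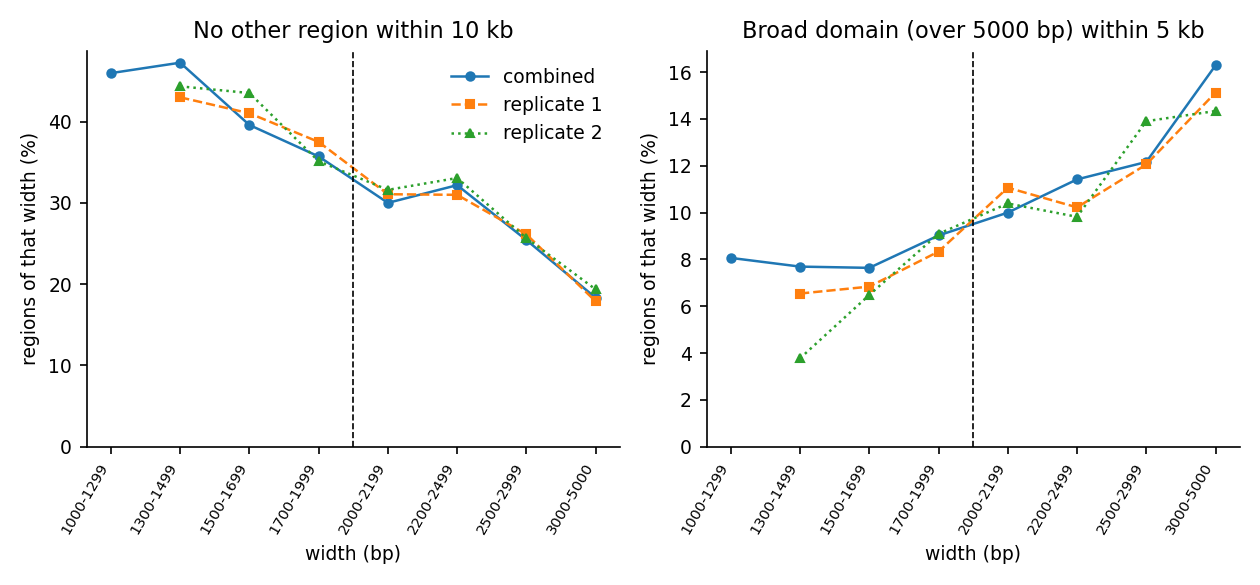
Share of regions (vertical, %) with no other region within 10 kb (left) and with a broad domain within 5 kb (right), by width in bp (horizontal) in the combined list and each replicate list, with a dashed line at 2000 bp. In the combined list the left share is 46.0% at 1000 to 1299 bp and 18.3% at 3000 to 5000 bp, and the right share is 8.06% and 16.3% at these widths.

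Mid-width regions of low score had values of place nearer to those of narrow regions than to those of other mid-width regions. This comparison was chosen after the values were seen. Of the 602 mid-width regions with a score below 1, 213 were alone (35.4%, interval 31.6% to 39.3%) and 57 flanked a broad domain (9.47%), at a median distance of 7235 bp. Of the 613 narrow regions with a score below 1, 244 were alone (39.8%, interval 35.9% to 43.8%) and 52 flanked a broad domain (8.48%), at 8233 bp. Of the 2482 mid-width regions with a score of 1 or more, 21.3% were alone and 14.6% flanked a broad domain, at 3684 bp. The mid-width regions below 1 were also narrower than these, with median widths of 2292 and 3007 bp. In replicate 1 these widths were 2216 and 2931 bp, and in replicate 2 they were 2246 and 2971 bp. Score and width cannot be told apart in this comparison. In replicate 1 the shares alone were 36.0% for mid-width regions below 1 and 39.6% for narrow ones, and in replicate 2 they were 39.2% and 39.0%. Since the scale is not stated, a score of 1 may differ in meaning between lists. Recovery did not follow this pattern, since 601 of the 602 low-scoring mid-width regions were found in both replicate lists, against 266 of the 613 narrow ones.

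Within the narrow class, score and recovery varied little with place. The median score was 0.23 for the 52 flanking regions, 0.20 for the 321 between and 0.21 for the 252 alone. Found in both libraries were 22 of the 52 flanking (42.3%, interval 28.7% to 56.8%), 148 of the 321 between (46.1%, interval 40.6% to 51.7%) and 96 of the 252 alone (38.1%, interval 32.1% to 44.4%), with overlapping intervals. Among mid-width regions the median score was 2.17 for flanking and 1.65 for alone.

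The flanking regions were direct neighbours of broad domains. In all 52 cases no other region lay between, the gap ran from 17 to 4995 bp with a median of 1670 bp, and 15 gaps were of at most 1 kb. The broad domains closest to them had a median width of 6656 bp, and that of all broad domains was 6699 bp. Of the 742 broad domains, 59 (7.95%) had a narrow region within 5 kb. A broad domain within 5 kb on both sides was seen for 43 regions of the whole combined list (0.966%). The narrow share was near this, with 7 regions (1.12%, interval 0.451% to 2.29%). For mid-width regions it was 16 (0.519%, interval 0.297% to 0.841%), and the intervals overlap. In the replicate lists it held for 3 narrow regions each (0.647% and 0.658%), and for 0.467% and 0.513% of mid-width regions.

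Of the narrow regions with a broad domain on both sides, the 5 with the smallest summed gaps were followed in the single libraries. The region on X from 2602316 to 2604196, of 1881 bp with a score of 0.47, lay 853 and 1667 bp from its broad neighbours and was found in replicate 1 only, as a region of 1767 bp. The region on 2L from 12699378 to 12701108, of 1731 bp with a score of 0.18, lay 2877 and 1623 bp away and was also found in replicate 1 only. The regions on 2L from 1152606 to 1153640, on X from 6175678 to 6177622 and on 2R from 19850060 to 19851070, of 1035, 1945 and 1011 bp, were in neither list. Their gaps were 251 and 2523 bp, 1339 and 2331 bp, and 3381 and 291 bp, and their scores 0.47, 0.26 and 0.34. None of the 5 was found in both libraries.

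At the other end were narrow regions far from any wider one. The farthest was on 2RHet from 2317166 to 2319154, 1989 bp wide with a score of 0.34, at 455783 bp. It was found in both libraries, with 1676 bp and a score of 0.32 in replicate 1 and 1983 bp and 0.39 in replicate 2. On U, the region from 4659042 to 4660980 at 263989 bp was also in both libraries, while its neighbour from 4667688 to 4669518, at 255451 bp, and the region from 1396926 to 1398074, at 153009 bp, were in neither. On 2L the region from 17777252 to 17778446, 1195 bp wide with a score of 0.23, lay 183999 bp from the next region of any width and was in neither. Next on the arms, and named after their values were seen, were 2 regions of 3R found in both libraries, from 2757162 to 2759054 at 132219 bp and from 19296384 to 19298306 at 109829 bp.

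The nearest neighbours of narrow regions were more often narrow and less often broad than the nearest neighbours of all regions. Their shares were nearer to those of the list by number. The nearest region was itself narrow for 100 of the 625 (16.0%, interval 13.2% to 19.1%), against 12.5% over all 4451 regions. It was a broad domain for 87 (13.9%, interval 11.3% to 16.9%), against 18.4%, and mid-width for 438 (70.1%), against 69.1%. By number, the list was 14.0% narrow, 69.3% mid-width and 16.7% broad. The intervals for narrow and broad neighbours of narrow regions hold these list shares, but not the 12.5% and 18.4% over all regions. No test of these shares was made. For mid-width regions the nearest region was a broad domain in 17.0% of cases and a narrow one in 12.4%. For broad domains the nearest region was another broad domain in 28.3% of cases and a narrow one in 9.97%. Going along each sequence, 432 narrow regions had wider regions on both sides or ended the list, and the others came in 70 pairs, 16 sets of 3 and 1 set of 5.

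Narrow regions took a like share of the regions on each chromosome arm. In the combined list they were 103 of the regions of 2L (13.6%), 121 of those of 2R (13.4%), 126 of those of 3L (14.7%), 145 of those of 3R (14.4%), 103 of those of X (13.2%) and 9 of those of the small chromosome 4 (16.1%). In the replicates the share was 10.2% ± 0.838 for 2L, 10.3% ± 0.929 for arm 2R, 12.1% ± 0.487 for arm 3L, 10.3% ± 0.414 for arm 3R, 10.7% ± 0.216 for X and 7.90% ± 2.69 for 4 (SD, n = 2 for each). The order of the arms was thus not the same in the combined list and the replicates, and 4 stood highest in the one and lowest in the other. Narrow regions per Mb in the combined list numbered between 4.48 (2L) and 5.72 (2R) among the large arms, and 6.66 on 4.

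Off the arms, narrow regions were seen on U and 2RHet alone. They were 12 of the 34 regions of U (35.3%, interval 19.7% to 53.5%) and 6 of the 16 of 2RHet (37.5%, interval 15.2% to 64.6%). Both intervals lie above the 13.9% of the 6 arms together (interval 12.9% to 15.0%), that of 2RHet only just. On U the share was 24.0% in replicate 1 (interval 9.36% to 45.1%) and 25.9% in replicate 2 (interval 11.1% to 46.3%), and these intervals hold the arms' share. On 2RHet there were 2 narrow regions of 12 in replicate 1 and 4 of 14 in replicate 2. The narrow regions of U scored higher than those of the arms, with a median of 0.61 against 0.20. None of the 15 regions of 3LHet was narrow, which with an exact interval allows up to 21.8%, and none of the 7 of 3RHet, 4 of YHet, 3 of XHet and 2 of 2LHet. How much of these scaffolds could receive mapped reads is unknown.

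**Figure D5:**
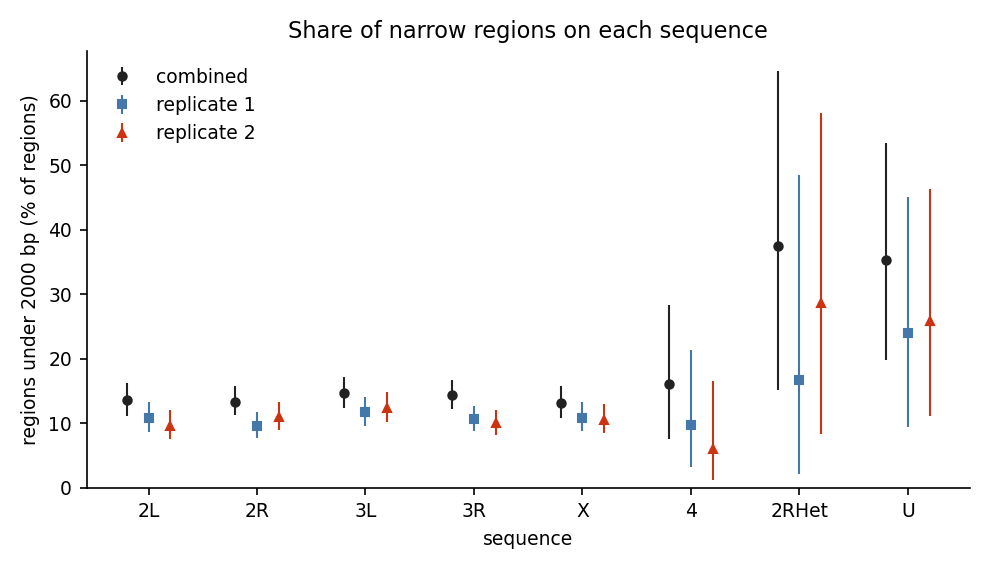
Share of the regions of each sequence that are under 2000 bp (vertical, %) in the combined list and the replicate lists, with exact 95% binomial intervals as bars. The 5 large arms sit between 13.2% and 14.7% in the combined list, while U and 2RHet sit at 35.3% and 37.5% with wide intervals.

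The narrow share varied little between large parts of the big arms. Pooled over the 5 large arms, it was lower in the last 1 Mb of arm sequence at the centromere end. Which end of each sequence is the centromere end was taken from the textbook orientation of the arms. Each arm was cut into 5 equal parts, counted from the centromere end. In that order, narrow regions were 13.0%, 13.5%, 15.2%, 14.2% and 13.4% of the regions in the combined list. The parts ranged from 10.3% to 11.3% in replicate 1 and from 9.57% to 11.3% in replicate 2, with the lowest share in the first part in replicate 1 and in the part numbered 4 in replicate 2. In the 1 Mb at the centromere end, 8 of 103 regions were narrow (7.77%, interval 3.41% to 14.7%), against 13.9% on the large arms. It was 4 of 99 in replicate 1 (4.04%, interval 1.11% to 10.0%) and 7 of 99 in replicate 2 (7.07%, interval 2.89% to 14.0%), where the arms held 10.7% each. The interval reaches the arms' share in the combined list and in replicate 2, but not in replicate 1. At the telomere end 30 of 207 were narrow (14.5%). The arms differed at the centromere end in the combined list. Narrow regions were 1 of 20 on 2L, 0 of 18 on 2R, 0 of 6 on 3L, 5 of 42 on 3R and 2 of 17 on X. On 3R the telomere end held 3 of 29. These counts per arm are small.

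Counted in the 117 whole windows of 1 Mb on the large arms, narrow regions numbered 5 in the median window, with 0 in 2 windows and at most 12. The fullest window was 2R from 3000001 to 4000000, where the combined list held 12 of them, replicate 1 held 9 and replicate 2 held 8. It also had 45 mid-width regions, the most of the 117 windows. Across windows, Spearman's rho between the numbers of narrow and mid-width regions was 0.29 and Pearson's r 0.31. Between broad domains and mid-width regions they were 0.40 and 0.36. These values describe windows of 1 list and carry no test. The longest stretches without a narrow region were on 2R from 1 to 1669243, with 41 wider regions, on 3L from 22883731 to 24543557, with 12, and on 2L from 13513557 to 14996213, with 19. The first 2 of these reach the centromere end of their arm.

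The narrow regions of high score in the combined list were mostly missing from the replicate lists. Of the 12 with a score above 1, 11 were in neither replicate list and 1 was in replicate 2 only, and 5 lay on U, 3 on chromosome 4, 2 on 2L and 2 on 3L. Each replicate list had 2 narrow regions of its own with a score above 1, reaching 2.52 in replicate 1 and 2.08 in replicate 2. The highest was on 4 from 1349888 to 1351752, 1865 bp wide with a score of 3.32, and it ended 105 bp from the end of the sequence. On 4 there were also the regions from 1347968 to 1348986 and from 1335112 to 1336124, of 1019 and 1013 bp, both with a score of 2.20. The last of these 3 to be named ended 15733 bp from the end of the sequence, and the nearest broad domain lay 97691 bp before it. On U the highest were the regions from 7585924 to 7587286, of 1363 bp with 2.52, and from 9769358 to 9770824, of 1467 bp with 2.12.

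Narrow regions found in both libraries reached much lower scores. The highest, named after the values were seen, was on U from 7989664 to 7991656, 1993 bp wide, with a score of 0.64 in the combined list, 0.67 in replicate 1 and 0.76 in replicate 2. On the arms it was on X from 9162606 to 9164546, 1941 bp wide, with 0.39, 0.60 and 0.24. Without U and the scaffolds, 607 narrow regions remained, with a median score of 0.20, of which 260 were found in both libraries and 156 in neither.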

How the data were processed

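Per the file headers, the authors deposited lists of enriched regions on FlyBase release 5, with 1 list for each ChIP library and 1 for the replicate set. Each region has a first and last base and a score, whose scale the deposited files do not state. The submitters' processing notes name Bowtie 0.12.7. No source used here gives the caller, its threshold, the part of the input or the way replicates were combined. The files hold no read counts, so depth per sample and its precision are unknown.

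Widths, gaps and overlaps were computed in pandas 2.3.3 and numpy 2.4.6 (Python 3.11.15), intervals in scipy 1.17.1 and plots in matplotlib 3.10.9. The code was tested on simulated lists. Intervals are exact 95% binomial (Clopper-Pearson) for shares and binomial order-statistic for medians. No test was made, since width chose the members and an exact permutation test over 2 libraries cannot go below a two-sided p of 0.5. The members, limits and comparisons were chosen with earlier results of these data known. Regions named are the 5 narrowest, highest-scoring, highest-scoring in neither list and farthest from regions of 2000 bp or more, the 5 closest between broad domains on both sides, 3 on each side of the limit, the fullest window and the longest empty stretches. Regions said to be named after their values were seen, the split at a score of 1, the width steps and the 100 bp beside the limit were added later. The gene table at hand is on Release 6 and was not used.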

Additional observations from a re-analysis of the deposited data

How the results depend on the processing

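Narrow regions were less often found in both libraries, or in the 1 library kept, than mid-width ones in each of the 6 alternatives run. They were farther from wider regions in each of 5, less often beside a broad domain in each of 7 and more often alone in each of 7. With a limit of 1500 bp there were 215 narrow regions on all sequences, of which 0.930% were in both lists and 46.5% alone, with a median score of 0.23, and narrow regions made up 4.76% of the regions on the arms. With 1 replicate left out, recovery in the other was 54.4% to 61.8%, which by construction cannot be lower than in both. Narrow regions then made up 10.66% to 10.69% of the arms' regions, with a median score of 0.28 to 0.35 on the scales of those lists, and the mid-width median distance was 3941 to 4164 bp; the cause was not tested. With neighbours within 500 bp merged, that distance was 5091 bp and 27.0% of mid-width regions were alone, where merging removes the shortest gaps. A flank gap of 2 kb gave 4.64% of narrow and 7.07% of mid-width regions, and one of 10 kb 14.4% and 22.5%. A limit for alone of 5 kb gave 58.1% and 41.3%, and one of 20 kb 20.8% and 13.0%, as such limits must. Recovery was 42.8% on the 6 arms alone and 42.6% with an overlap of 50% of both regions. No paired analysis was possible because the groups with common replicate numbers are ChIP and input, and the inputs were left out. The differences between width classes were taken within each ChIP library. Unknown depth limits each statement on weak regions.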

Other observations

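The longest set of narrow regions with no wider region among them was on 3L from 914002 to 1023194, where 5 followed each other over 109 kb. The 3 regions of replicate 1 that no region of the combined list overlapped were themselves narrow. They lay on 2L from 7729889 to 7731219, of 1331 bp with a score of 0.53, on 2R from 6159165 to 6160468, of 1304 bp with 0.22, and on X from 8936248 to 8937754, of 1507 bp with 0.37. Of the 20 narrow regions with a score below 0, 4 were found in both libraries (20.0%) and 3 in neither, and of the other 605, 262 were found in both (43.3%) and 162 in neither. Of the same 20, 8 were alone (40.0%), against 244 of the other 605 (40.3%).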
